A study of Mus musculus with 12 samples.

Results

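S100a8 and S100a9 are the genes of the calcium-binding proteins that together form calprotectin. They were taken by name from the table of gene values, where they are 2 of 754 genes, and were followed across the 4 groups of the study. The 11 libraries used in the comparisons had more signal from these genes than from any other. Both genes varied together from mouse to mouse, and neither passed the test in any comparison between groups.

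The study measured RNA of cells sorted as HSCs (haematopoietic stem cells) in a flow cytometer from femur marrow of male mice. Its title asks how innervation through the beta-3 adrenergic receptor acts on cells of the marrow. The groups were Adrb3-/- mice after ICH, Adrb3-/- mice after sham surgery, wild type C57/BL6 mice after ICH and wild type C57/BL6 mice after sham surgery, all at day 3 after surgery. ICH is given only as an abbreviation in the labels. There were 3 libraries in each group, from 6 mice of each genotype, and 1 library is read as 1 mouse. The labels name neither the age of the mice nor the strain that carries the Adrb3 deletion. Adrb3 was not analysed here, and the genotype rests on the labels alone.

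S100A8 and S100A9 proteins bind each other, and the heterodimer is held in very large amounts in the cytosol of neutrophils and, at lower amounts, of monocytes. Released calprotectin withholds zinc and manganese from microbes, and it acts on other cells through the receptors TLR4 and RAGE. Both genes are switched on as marrow progenitors mature along the granulocyte and monocyte path, and C/EBP family factors and PU.1 are known regulators of that path. Their expression in stem cells themselves is low in undisturbed marrow.

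Both genes lie on chromosome 3 and are next to each other in the gene table of RefSeq for GRCm38.p6. That chromosome holds 14 of the 17 S100 genes counted by symbol in the table, a count that leaves out S100a7l2. The stretches around their annotated starts are shown because the genes moved together in these libraries although they are read from opposite strands. Each stretch is 260 bases long, 250 before the start and 10 after it, written 5′ to 3′ in the direction of the gene. The S100a8 stretch is chr3:90668821-90669080 on the plus strand and the S100a9 stretch is chr3:90695712-90695971 on the minus strand. Capitals mark matches, on either strand, to the letters TATAAA (the TATA box), TTNNGNAA (a pair of C/EBP half-sites) and GAGGAA (bound by ETS factors of the PU.1 type).
S100a8 promoter: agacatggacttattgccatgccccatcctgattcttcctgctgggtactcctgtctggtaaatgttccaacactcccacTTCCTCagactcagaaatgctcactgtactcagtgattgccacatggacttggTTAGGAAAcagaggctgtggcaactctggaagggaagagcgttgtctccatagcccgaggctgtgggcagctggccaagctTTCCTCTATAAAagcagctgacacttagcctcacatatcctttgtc
S100a9 promoter: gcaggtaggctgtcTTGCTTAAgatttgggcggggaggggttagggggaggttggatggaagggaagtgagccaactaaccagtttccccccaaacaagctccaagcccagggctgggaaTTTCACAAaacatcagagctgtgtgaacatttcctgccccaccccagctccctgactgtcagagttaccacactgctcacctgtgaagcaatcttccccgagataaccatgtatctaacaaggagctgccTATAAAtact

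The S100a8 stretch held a TATA box at bases -30 to -25, 1 C/EBP match at -117 to -110, and GAGGAA on the opposite strand at -170 to -165 and at -36 to -31, where it abuts the TATA box without overlapping it. The S100a9 stretch held 2 C/EBP matches on the opposite strand, at -236 to -229 and at -130 to -123, a TATA box at bases 1 to 6 after the annotated start, and no GAGGAA. The TATA letters occurred in 12.7% of the 32851 mouse promoter stretches of this length, the C/EBP letters in 37.7% and GAGGAA in 24.1%. TGANTCA (AP-1, 7.03% of the stretches), TTCNNNGAA (STAT, 7.33%) and GGNNTTTCC (NF-kB, 5.17%) had no match in either stretch. A match describes letters only, and no binding was measured.

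In all, 3 libraries stood apart and are named here before the results. The strongest positive control of Wild type sham replicate 1 gave 79 counts, against 6278 to 44207 in the other libraries, and all genes together gave 24775 counts, against 110740 to 556407. It is treated as a failed reaction and shown apart, which leaves 2 Wild type sham libraries. Adrb3-/- ICH replicate 1 had the lowest positive control of the other 11 (19.8% of their median), and Adrb3-/- sham replicate 3 had by far the lowest S100a8 and S100a9. Both were kept, and results that turn on them are given with and without them. Adrb3-/- ICH replicate 2, also kept, had the fewest gene counts of the 11 (110740) and the most genes under 20 counts. There were 243 of these genes, against 27 to 104 in the other libraries used. The values are counts of molecules multiplied by 1 factor per library, which sets the geometric mean of 20 reference genes to the same level. S100a8 rested on 26614 to 139982 counts and S100a9 on 28361 to 151442 counts in the 11 libraries, so counting error is small beside the spread between mice.

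The label HSC was checked against a fixed list of 20 stem and progenitor markers, of which 5 were measured. Cd34 had values of 266 to 1880, Gata2 of 86.3 to 807 and Flt3 of 144 to 424 over the 11 libraries. Kit, the stem cell factor receptor, and Tek, the angiopoietin receptor, were above 20 counts in every library except Adrb3-/- ICH replicate 1. Tek was near the background, with a median value of 63.35 against 52.2. The 5 markers together summed to 573 to 3500 in Adrb3-/- ICH, 1479 to 2676 in Adrb3-/- sham, 825 to 1292 in Wild type ICH and 666 to 2046 in Wild type sham libraries. Of the 12 neutrophil markers fixed, 7 were measured beside S100a8 and S100a9, and these 7 summed to 27410 to 39562 in Adrb3-/- ICH, 9781 to 35979 in Adrb3-/- sham, 23597 to 34135 in Wild type ICH and 41652 to 44955 in Wild type sham libraries. Camp gave most of each sum, with 33377 of 39562 in Adrb3-/- ICH replicate 1 and 8648 of 9781 in Adrb3-/- sham replicate 3. Camp and Ly6g averaged lower in Adrb3-/- ICH than in Wild type sham libraries (Camp 29006 against 40405). Mmp8 (1251 against 794), Mmp9, Cxcr2, Csf3r and Fpr1 averaged higher. Adrb3-/- ICH replicate 1 gave the highest value of its group for Mmp8, Mmp9, Cxcr2 and Csf3r. Mmp9 was 1276 there and 527 and 473 in replicates 2 and 3, against 524 and 417 in Wild type sham libraries. Fpr1 averaged 218 with an SD of 130 in Adrb3-/- ICH, against 172 in Wild type sham libraries. The sorted cells thus gave signal of stem cell markers and of genes of maturing neutrophils. In bulk RNA, fewer cells of a type and less RNA per cell cannot be told apart.

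In the Adrb3-/- ICH libraries, replicates 1 to 3, S100a8 had values of 256188, 137379 and 103606. In the Adrb3-/- sham libraries it had 151614, 120408 and 36926. In the Wild type ICH libraries it had 116882, 150597 and 142839, and in Wild type sham replicates 2 and 3 it had 190392 and 191288. The highest value was in Adrb3-/- ICH replicate 1 and the lowest in Adrb3-/- sham replicate 3, and they differ 6.94 times. The 2 Wild type sham libraries were nearly equal, while the range of values within each Adrb3-/- group was wider than any difference between group means.

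S100a9 had values of 221187, 146397 and 144150 in the Adrb3-/- ICH libraries, replicates 1 to 3. It had 172863, 124702 and 45115 in the Adrb3-/- sham libraries. It had 112682, 138745 and 121585 in the Wild type ICH libraries, and 216327 and 206949 in Wild type sham replicates 2 and 3. The extremes were the same libraries as for S100a8, and they differ 4.90 times. Without Adrb3-/- sham replicate 3 the range narrowed to 2.47 times for S100a8 and 1.96 times for S100a9. Within the Adrb3-/- sham group, replicates 1 and 2 stood 3.26 to 4.11 times above replicate 3 for S100a8 and 2.76 to 3.83 times for S100a9.

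**Figure D1:**
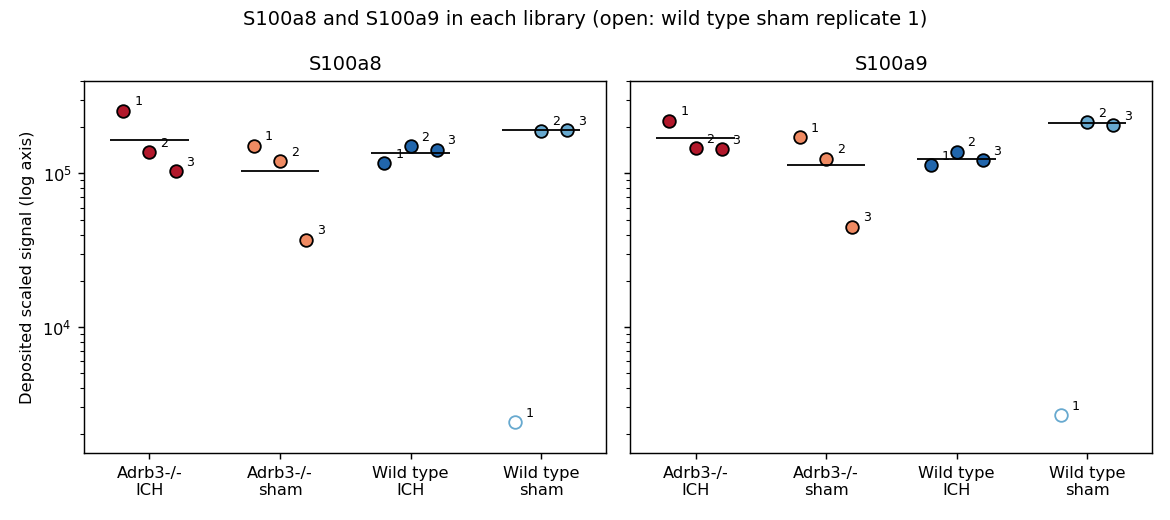
Scaled signal of S100a8 (left) and S100a9 (right) on a log axis, with 1 point per library numbered by replicate, bars at the mean of the libraries used, and an open point for Wild type sham replicate 1. Adrb3-/- sham replicate 3 sits lowest of the filled points for both genes (36926 and 45115), and Adrb3-/- ICH replicate 1 highest (256188 and 221187).

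S100a8 averaged 165724 ± 80143 in Adrb3-/- ICH, 102983 ± 59296 in Adrb3-/- sham, 136773 ± 17657 in Wild type ICH (SD, n = 3 each) and 190840 ± 633 in Wild type sham libraries (n = 2). S100a9 averaged 170578 ± 43843 in Adrb3-/- ICH, 114227 ± 64515 in Adrb3-/- sham, 124337 ± 13248 in Wild type ICH (n = 3 each) and 211638 ± 6631 in Wild type sham libraries (n = 2). For both genes the order by mean was Wild type sham, Adrb3-/- ICH, Wild type ICH and then Adrb3-/- sham. Neighbours in this order overlapped in their library values, except Adrb3-/- ICH and Wild type ICH for S100a9. Wild type sham overlapped with Adrb3-/- ICH only through Adrb3-/- ICH replicate 1.

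The 2 genes made up a large share of everything counted. They took 55.3% (95% Wilson interval 55.1 to 55.4%), 49.6% (49.3 to 49.9%) and 46.9% (46.7 to 47.1%) of the gene counts in Adrb3-/- ICH replicates 1 to 3. They took 49.4% (49.2 to 49.5%), 44.3% (44.2 to 44.5%) and 23.2% (23.1 to 23.4%) in Adrb3-/- sham replicates 1 to 3. The share was 43.9% (43.7 to 44.0%), 49.6% (49.5 to 49.8%) and 46.7% (46.6 to 46.9%) in Wild type ICH replicates 1 to 3, and 54.0% (53.8 to 54.1%) and 52.4% (52.2 to 52.5%) in Wild type sham replicates 2 and 3. These intervals cover counting error only. In 10 of 11 libraries the share was thus between 43.9% and 55.3%, and Adrb3-/- sham replicate 3 alone lay below. S100a8 by itself took 10.4% to 29.7% of the counts and S100a9 12.8% to 28.7%.

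The share averaged 50.6 ± 4.26% in Adrb3-/- ICH and 39.0 ± 13.9% in Adrb3-/- sham libraries (SD, n = 3 each), a difference of 11.6 percentage points (exact permutation test, two-sided, p = 0.2, where 0.1 is the smallest p possible). It averaged 46.7 ± 2.88% in Wild type ICH (n = 3) and 53.2 ± 1.12% in Wild type sham (n = 2), a difference of -6.42 points without overlap (exact p = 0.2, the smallest possible). Adrb3-/- sham minus Wild type sham was -14.2 points (exact p = 0.2, the smallest possible), also without overlap, and Adrb3-/- ICH lay 3.85 points above Wild type ICH (exact p = 0.2). Without Adrb3-/- sham replicate 3, Adrb3-/- ICH minus Adrb3-/- sham was 3.74 points. Adrb3-/- sham minus Wild type sham was then -6.31 points. These group sizes cannot reach a p under 0.05.

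**Figure D2:**
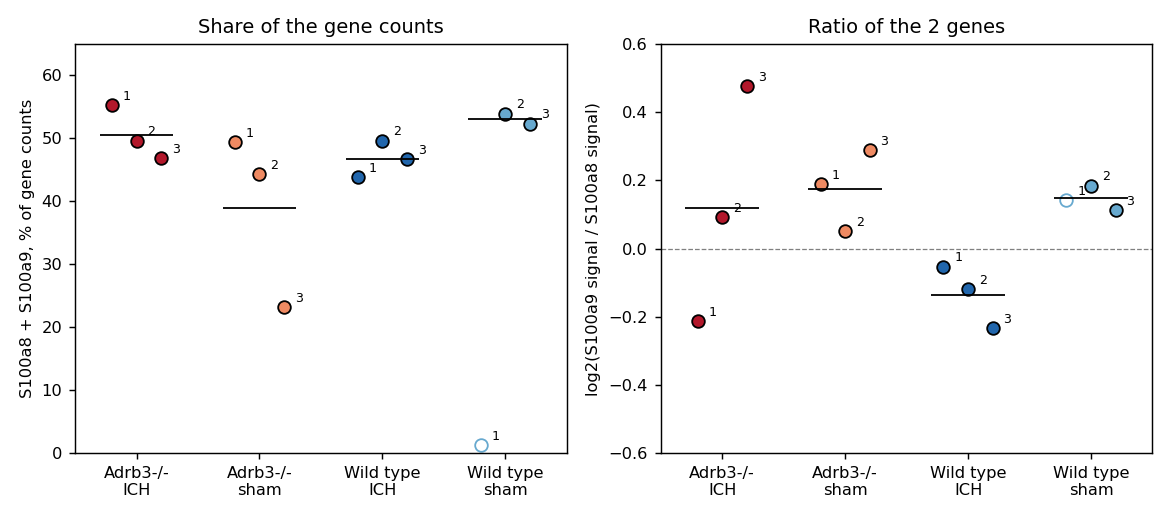
Left, share of all gene counts held by S100a8 and S100a9 in percent; right, log2 of the S100a9 signal over the S100a8 signal; points are libraries numbered by replicate, bars are means of the libraries used, and the open point is Wild type sham replicate 1. The share is 43.9% to 55.3% except in Adrb3-/- sham replicate 3 (23.2%), and the 3 Wild type ICH ratios are the only group wholly below 0.

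The ratio of S100a9 to S100a8 varied less between libraries than either gene. Each gene has its own probe, so the ratio itself is not a ratio of molecules and only its variation between libraries is read. Its log2 was -0.21, 0.09 and 0.48 in Adrb3-/- ICH replicates 1 to 3 and 0.19, 0.05 and 0.29 in Adrb3-/- sham replicates 1 to 3. It was -0.05, -0.12 and -0.23 in Wild type ICH replicates 1 to 3, and 0.18 and 0.11 in Wild type sham replicates 2 and 3. The SD over the 11 libraries was 0.22 for this ratio, against 0.72 for log2 S100a8 and 0.64 for log2 S100a9. Without Adrb3-/- sham replicate 3 the SD was 0.21 for the ratio, 0.39 for log2 S100a8 and 0.36 for log2 S100a9. The widest spread was inside the Adrb3-/- ICH group, which held the highest ratio of the 11 libraries and 1 of the lowest. Wild type ICH averaged -0.13 ± 0.09 (n = 3) and Wild type sham 0.15 ± 0.05 (n = 2), a difference of -0.28 without overlap (exact permutation test, p = 0.2, the smallest possible). The other differences were -0.06 for Adrb3-/- ICH against Adrb3-/- sham (exact p = 0.9), 0.03 for Adrb3-/- sham against Wild type sham (exact p = 0.8) and 0.25 for Adrb3-/- ICH against Wild type ICH (exact p = 0.3).

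Across the 11 libraries log2 S100a8 and log2 S100a9 rose and fell together, with Pearson's r = 0.956 (permutation p = 0.00044, 100000 permutations) and Spearman's rho = 0.836 (p = 0.00246). This was the only correlation tested. Without Adrb3-/- sham replicate 3 and Adrb3-/- ICH replicate 1, the libraries farthest from the median, r was 0.795 (exact permutation p = 0.0131) and rho 0.70 (exact p = 0.0433) over 9 libraries. After each group's mean was taken off, r was 0.965 over the 11 libraries. Both genes share 1 scaling factor per library, which by itself moves them together.

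The first comparison sets Adrb3-/- ICH against Adrb3-/- sham libraries, to see what ICH changed in the absence of the receptor. Both genes averaged higher after ICH, by less than the range of values within either group. S100a8 averaged 165724 in Adrb3-/- ICH and 102983 in Adrb3-/- sham libraries, a log2 change of 0.81 (SE 0.50, 95% interval -0.30 to 1.92, limma with Benjamini-Hochberg adjusted p = 0.564). S100a9 averaged 170578 in Adrb3-/- ICH and 114227 in Adrb3-/- sham libraries, a log2 change of 0.75 (SE 0.43, interval -0.20 to 1.71, limma adjusted p = 0.537). The groups overlapped for both genes, while they did not for 11.9% of the genes tested. Neither gene passed the adjusted threshold of 0.05, which 1.04% of the 674 genes tested passed, all of them lower after ICH. The changes rest on Adrb3-/- sham replicate 3: without it they were 0.19 for both genes, and without Adrb3-/- ICH replicate 1 as well they were -0.18 for S100a8 and -0.015 for S100a9.

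Monocyte, macrophage and dendritic cell markers differed between the same libraries. Of 20 such markers fixed, 17 were measured, with at most 2 under 20 counts in a library, and they summed to 2720 to 6047 in Adrb3-/- ICH and 9760 to 17119 in Adrb3-/- sham libraries, highest in Adrb3-/- sham replicate 3. Of the 15 tested, 5 fell in Adrb3-/- ICH by limma's adjusted p: Mrc1 (mannose receptor, log2 change -2.54), Vcam1 (an adhesion molecule, -2.61), Cd163 (haemoglobin scavenger receptor, -2.14), Apoe (a lipid carrier, -1.74) and Adgre1 (F4/80, -1.65). These calls depend on single libraries: no gene passed without Adrb3-/- sham replicate 2 or 3, or without any 1 of the Wild type ICH libraries. Over all genes 2 passed without Adrb3-/- sham replicate 1, 3 without Adrb3-/- ICH replicate 2, 23 without Adrb3-/- ICH replicate 1 and 50 without Adrb3-/- ICH replicate 3. The part of these cell types in the S100a8 and S100a9 values was not tested.

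In wild type mice the same comparison went the other way in sign, again without passing the threshold. S100a8 averaged 136773 in Wild type ICH and 190840 in Wild type sham libraries, a log2 change of -0.49 (SE 0.56, interval -1.73 to 0.75, limma adjusted p = 0.9999). S100a9 averaged 124337 in Wild type ICH and 211638 in Wild type sham, a log2 change of -0.77 (SE 0.48, interval -1.84 to 0.29, limma adjusted p = 0.9999). Every Wild type ICH library lay below both Wild type sham libraries in both genes, a pattern that 14.1% of the 674 genes tested shared. By limma 0 genes (0%) passed in this comparison, and 0 had an unadjusted p under 0.05. With Wild type sham replicate 1 included, the changes were 1.61 for S100a8 and 1.33 for S100a9. The change of S100a8 was 0.18 with quantile normalization, which must level these 2 genes, the highest in all 11 libraries. The monocyte, macrophage and dendritic cell markers summed to 5576 to 6327 in Wild type ICH and 4398 to 7173 in Wild type sham libraries, ranges that overlap.

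Adrb3-/- sham against Wild type sham compares the genotypes without ICH. Both genes were lower in every Adrb3-/- sham library than in either Wild type sham library, as were 16.3% of the genes tested. The log2 change of S100a8 was -1.12 (SE 0.56, interval -2.36 to 0.12, unadjusted p = 0.0719 and adjusted p = 0.992 by limma). That of S100a9 was -1.09 (SE 0.48, interval -2.16 to -0.03, unadjusted p = 0.0449 and adjusted p = 0.992 by limma). No gene passed here (0%), and 4.75% of genes had an unadjusted p under 0.05. Without Adrb3-/- sham replicate 3 the changes were -0.50 for S100a8 and -0.53 for S100a9. The monocyte, macrophage and dendritic cell markers summed to 9760 to 17119 in Adrb3-/- sham libraries, above the 4398 to 7173 of Wild type sham.

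Adrb3-/- ICH against Wild type ICH compares the genotypes after ICH. S100a9 was higher in every Adrb3-/- ICH library (144150 or more) than in any Wild type ICH library (138745 or less), a pattern shared by 4.9% of the genes tested, while S100a8 overlapped. The log2 change was 0.43 for S100a9 (SE 0.43, interval -0.52 to 1.38, limma adjusted p = 0.703) and 0.18 for S100a8 (SE 0.50, interval -0.93 to 1.29, limma adjusted p = 0.883). Again 0% of genes passed, and 10.7% had an unadjusted p under 0.05. Without Adrb3-/- ICH replicate 1 the change of S100a9 was 0.23 and that of S100a8 was -0.19. Of 14 markers of mast cells, basophils and eosinophils fixed, 10 were measured. They summed to 1575 to 2053 in Adrb3-/- ICH and 2592 to 3432 in Adrb3-/- sham libraries. Their sums were 3327 to 9602 in Wild type ICH and 2033 to 8346 in Wild type sham libraries. The 17 monocyte, macrophage and dendritic cell markers summed to 2720 to 6047 in Adrb3-/- ICH and 5576 to 6327 in Wild type ICH libraries. Of the 15 tested, 12 had a log2 change below 0, with a median of -0.73 against -0.14 for all genes tested. None of these markers passed limma's adjusted threshold in this comparison, and their part in the S100a8 and S100a9 values was not tested.

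The difference between the ICH effects of the 2 genotypes was tested as an interaction. It was 1.30 on the log2 scale for S100a8 (SE 0.75, interval -0.36 to 2.97, unadjusted p = 0.113 and adjusted p = 0.888 by limma) and 1.53 for S100a9 (SE 0.64, interval 0.10 to 2.96, unadjusted p = 0.0385 and adjusted p = 0.888 by limma). Among the 674 genes 0% passed after adjustment, and 4.3% had an unadjusted p under 0.05. Without Adrb3-/- sham replicate 3 and Adrb3-/- ICH replicate 1 the interaction was 0.31 for S100a8 and 0.76 for S100a9. The opposite signs of the ICH effects in the 2 genotypes are therefore not shown to differ.

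**Figure D3:**
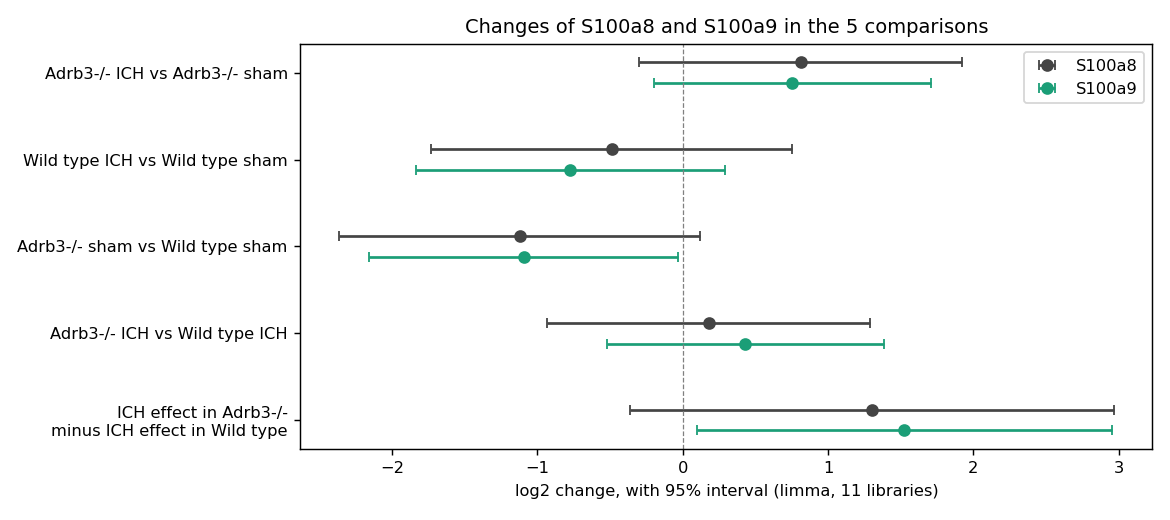
Log2 change of S100a8 (dark points) and S100a9 (green points) in the 5 comparisons, with 95% intervals from limma over 11 libraries; the dashed line is no change. All intervals cross 0 except those of S100a9 for Adrb3-/- sham against Wild type sham (-2.16 to -0.03) and for the interaction (0.10 to 2.96), and no change passes after adjustment.

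Genes whose level followed that of S100a8 and S100a9 most closely were sought among 489 others with at least 20 counts in all 11 libraries, by Pearson's r with the mean log2 signal of the pair. The points are the same 11 libraries and share their scaling factors, so r is a description. Chil4, a chitinase-like protein of myeloid cells, had r = 0.976, and its near-identical relative Chil3, whose signal may not be separate from it, had 0.967. Ly6g, the surface antigen that defines mouse neutrophils, had 0.974 and Camp, the cathelicidin peptide of secondary granules, 0.948. Clec5a (a myeloid lectin receptor) had 0.966, C5ar1 (the receptor of complement C5a) 0.95, Alox5 (5-lipoxygenase) 0.95 and Pglyrp1 (a granule protein that binds peptidoglycan) 0.949.

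Ly6g had values of 1057, 444 and 435 in Adrb3-/- ICH replicates 1 to 3 and 560, 465 and 170 in Adrb3-/- sham replicates 1 to 3. It had 476, 597 and 509 in Wild type ICH replicates 1 to 3, and 727 and 693 in Wild type sham replicates 2 and 3. Its highest and lowest libraries were those of the calprotectin genes. So were those of Chil3, with 32997 in Adrb3-/- ICH replicate 1 and 3119 in Adrb3-/- sham replicate 3. The choice of genes by r over these libraries favours such a match. Without Adrb3-/- sham replicate 3, r was 0.928 for Ly6g, 0.917 for Chil4, 0.945 for Chil3, 0.885 for Alox5, 0.863 for Clec5a, 0.801 for C5ar1 and 0.790 for both Pglyrp1 and Camp, and 4 of the 8 genes stayed among the highest 8. At the other end stood Hdac6 (a cytoplasmic deacetylase, r = -0.87), Tgm2 (tissue transglutaminase, -0.86), Lipa (lysosomal acid lipase, -0.73) and Ltb (lymphotoxin beta, -0.73). Lipa was at -0.11 without Adrb3-/- sham replicate 3, while Hdac6 was at -0.80 and Tgm2 at -0.82.

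**Figure D4:**
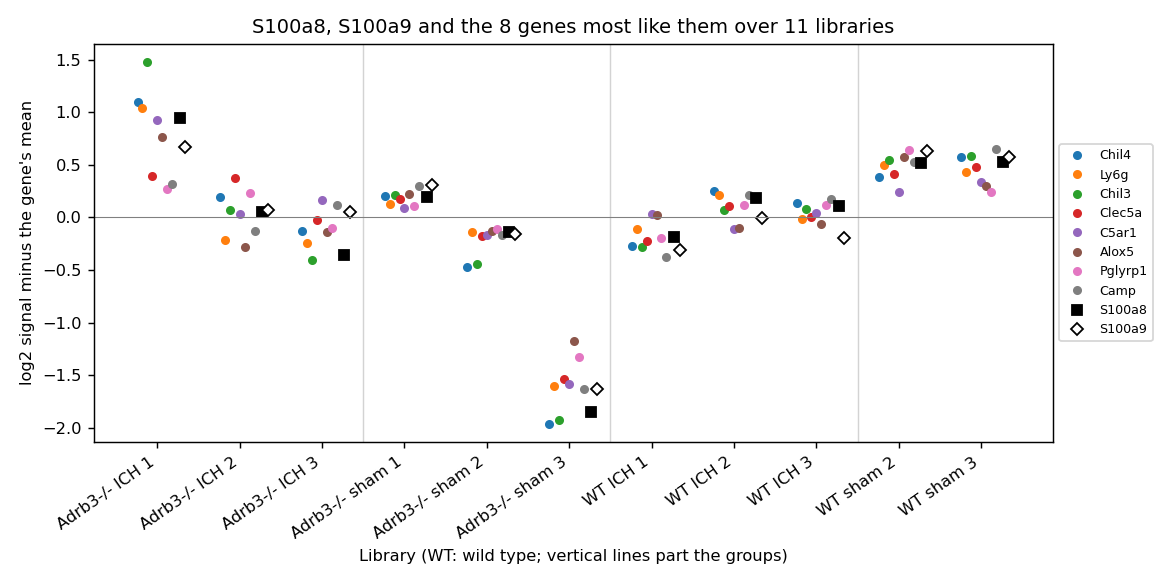
Log2 signal of S100a8 and S100a9 (black squares and white diamonds) and of the 8 genes most like them (coloured points), each minus its own mean, in the 11 libraries. All 10 genes are lowest in Adrb3-/- sham replicate 3, which lies far below the other libraries. The 8 genes were chosen by r over these same libraries, and that choice favours genes that are low there.

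Genes with known links to calprotectin were counted from fixed lists, ordered from its receptors to the granule genes of the same cells. None of the members tested in these lists passed limma's adjusted threshold in any of the 5 comparisons, so their values are given as descriptions. Of all 674 genes, 67.1% had a log2 change below 0 for ICH against sham in Adrb3-/- mice (median -0.16) and 71.7% in wild type mice (median -0.11).

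Of 9 calprotectin receptors listed, 4 were measured: Tlr4, the receptor named above, Cd36, a scavenger receptor, and Cd69 and Alcam, cell surface proteins. All 4 had a log2 change below 0 for ICH against sham in Adrb3-/- mice (median -0.34, and between -0.41 and -0.22 under 3 other scalings), with -0.75 for Cd36 and -0.24 for Tlr4. Without Adrb3-/- ICH replicate 2, 1 of 4 was above 0. In wild type mice 2 of 4 were below 0. Tlr4 averaged 132 in Adrb3-/- ICH, 155 in Adrb3-/- sham, 149 in Wild type ICH and 149 in Wild type sham libraries, and its r with the pair was -0.46 (-0.19 without Adrb3-/- sham replicate 3).

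Of 30 genes of TLR4 and NF-kB signalling, 12 were tested. For ICH against sham, 9 of 12 were below 0 in Adrb3-/- mice (median -0.17) and 12 of 12 in wild type mice (median -0.44). With quantile normalization 2 and with scaling to the sum of the other genes 3 of the wild type changes were above 0, with medians of -0.36 and -0.18. Without Adrb3-/- ICH replicate 1, 7 of the 12 changes in Adrb3-/- mice were above 0. Without Wild type sham replicate 3, 4 of the 12 in wild type mice were above 0 (median -0.15). Il1b, the interleukin-1 beta gene, followed the calprotectin genes with r = 0.80 (0.45 without Adrb3-/- sham replicate 3), and its log2 change was 0.64 in Adrb3-/- mice (-0.0079 without that library) and -0.57 in wild type mice (-0.17 without Wild type sham replicate 3). Il6, the interleukin-6 gene, had a log2 change of -1.46 in Adrb3-/- mice and -0.40 in wild type mice. The Adrb3-/- change was -0.97 without Adrb3-/- ICH replicate 2, the 1 library where Il6 was under 20 counts. Tnfaip3, an inhibitor of NF-kB signalling, had -0.73 in Adrb3-/- mice and -0.77 in wild type mice, where it was 0.31 without Wild type sham replicate 3.

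Of 17 transcription factors listed as regulators of myeloid S100 genes, 10 were tested. For ICH against sham, 5 of 10 were below 0 in Adrb3-/- mice (median 0.01) and 9 of 10 in wild type mice (median -0.15, but 0.11 with scaling to the sum of the other genes). Cebpb and Cebpd, C/EBP factors of maturing and activated myeloid cells, had r = 0.82 and 0.72 with the pair. These fell to 0.65 for Cebpb and 0.55 for Cebpd without Adrb3-/- sham replicate 3. Cebpa, the C/EBP factor of granulocyte-monocyte progenitors, had r = 0.18, which rose to 0.70 without that library. Irf8, which directs progenitors to monocytes and away from granulocytes, had a log2 change of -0.63 in Adrb3-/- mice. The wild type change was 1.79, and -0.14 without Wild type sham replicate 3, the 1 library where Irf8 was under 20 counts.

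In the deposited scaling the other measured S100 genes, 3 of 16 listed, had the same sign as the calprotectin genes in both ICH comparisons. S100a11 had a log2 change of 0.71 in Adrb3-/- and -0.47 in wild type mice, S100a4 of 0.59 in Adrb3-/- and -0.24 in wild type mice, and S100a10 of 0.41 in Adrb3-/- and -0.03 in wild type mice. All 3 stayed above 0 in Adrb3-/- mice under the 3 other scalings, and 2 of 3 did without the libraries that stood apart. In wild type mice the median of -0.24 turned to 0.01 with quantile normalization or with scaling to the sum of the other genes, to 0.13 without Wild type sham replicate 3 and to 0.03 without Wild type ICH replicate 3. S100a4 in Adrb3-/- mice was at -0.31 without Adrb3-/- ICH replicate 1. Their r with the pair was 0.88 for S100a11, 0.64 for S100a4 and 0.29 for S100a10.

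Granule genes followed the calprotectin genes more closely than the receptors did by median r. The 9 secondary and tertiary granule genes tested, of 19 listed, had a median r of 0.87 (0.79 without Adrb3-/- sham replicate 3) and were all above 0. For ICH against sham in Adrb3-/- mice 9 of 9 were above 0, with a median log2 change of 0.60 that lay between 0.54 and 0.72 under the other scalings. The largest changes were 1.10 for Mmp8, the neutrophil collagenase, 1.10 for Chil3, 1.0 for Mmp9, a gelatinase, and 0.93 for Adam8, a membrane protease. Without the 2 libraries that stood apart, 3 of 9 were above 0 and the median was -0.07. In wild type mice the median was -0.30 with 1 of 9 above 0, and it was 0.00 with quantile normalization. For Adrb3-/- sham against Wild type sham all 9 were below 0 (median -0.87, against 62% of all genes below 0), with a median of -0.44 without the libraries that stood apart.

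The 3 primary granule genes measured of 10 listed were Mpo (myeloperoxidase), Elane (neutrophil elastase) and Ctsg (cathepsin G), with a median r of 0.87. Their log2 changes for ICH against sham in Adrb3-/- mice were 0.05 for Mpo, 0.24 for Elane and 0.54 for Ctsg, and 2 of 3 stayed above 0 with quantile normalization or scaling to the sum of the other genes. In wild type mice they were -0.63 for Mpo, -0.28 for Elane and -0.74 for Ctsg. Without the libraries that stood apart the median in Adrb3-/- mice was -0.27, with 0 of 3 above 0, and leaving out Adrb3-/- sham replicate 3 alone gave -0.18, with 1 of 3 above 0.

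Of 26 late neutrophil genes, 19 were tested, and the 18 with enough counts had r above 0 with the pair, with a median of 0.69 (0.63 without Adrb3-/- sham replicate 3). By comparison 238 of the 489 genes ranked had r above 0, with a median of -0.02. For ICH against sham in Adrb3-/- mice 16 of 19 were above 0 (median 0.48), among them Fpr2, a formyl peptide receptor (0.98), Cxcr2, a chemokine receptor (0.95), and Csf3r, the G-CSF receptor (0.83). Without the libraries that stood apart 6 of 19 were above 0 and the median was -0.17. In wild type mice 4 of 19 were above 0 (median -0.20), and the median was 0.06 with scaling to the sum of the other genes. For Adrb3-/- sham against Wild type sham 18 of 19 were below 0, with a median of -0.49. That median was -0.18 without the libraries that stood apart, and -0.27 with 6 of 19 above 0 with scaling to the sum of the other genes.

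Genes of cytokines that recruit neutrophils were near the lower limit: of 12 listed 10 were measured and 5 passed the filter on low values. Their r with the pair had a median of 0.27, and of 0.05 without Adrb3-/- sham replicate 3. For ICH against sham the median log2 change was -0.09 in Adrb3-/- mice, which turned to 0.03 with median centring and 0.13 with quantile normalization, and -0.58 in wild type mice, where 5 of 5 were below 0. The wild type median was -0.27 with quantile normalization, -0.33 with 2 of 5 above 0 with scaling to the sum of the other genes, and -0.06 without Wild type sham replicate 3. Cxcl2, a neutrophil chemokine, had -0.09 in Adrb3-/- mice and -1.51 in wild type mice, and Ccl3, another chemokine, had -0.62 in Adrb3-/- mice and -1.02 in wild type mice. Both wild type values rest on Wild type sham replicate 3, and without it Cxcl2 was at -0.06 and Ccl3 at 0.03. The median in Adrb3-/- mice was -0.97, the value of Cxcl2, without Adrb3-/- sham replicate 3.

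Markers of other cell types were set against the calprotectin genes in the same way. The 3 stem and progenitor markers with enough counts in all 11 libraries had r between -0.55 and -0.50 with the pair. The 15 monocyte, macrophage and dendritic cell markers had a median r of -0.48, which became 0.04 without Adrb3-/- sham replicate 3, so that this relation rests on that library. The median r for the 8 markers of mast cells, basophils and eosinophils was 0.07, with 6 of 8 above 0, and without that library it was -0.12, with 2 of 8 above 0. The median was 0.07 for the 2 erythroid and megakaryocyte markers and -0.05 for the 2 stromal and endothelial markers. The single B cell marker had r = -0.20, which became 0.46 without Adrb3-/- sham replicate 3, and the single T and NK cell marker had 0.89, which became 0.74.

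**Figure D5:**
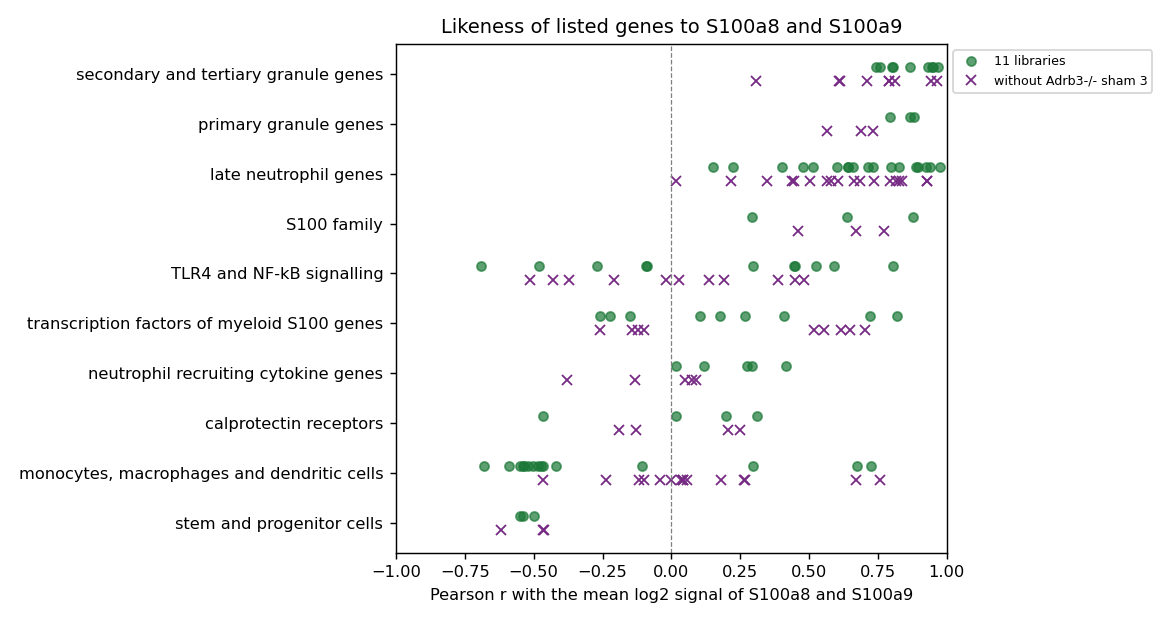
Pearson's r of each listed gene with the mean log2 signal of S100a8 and S100a9, over 11 libraries (circles) and without Adrb3-/- sham replicate 3 (crosses), by list. Secondary and tertiary granule genes (median 0.87) and late neutrophil genes (median 0.69) lie to the right in both, and stem and progenitor markers (-0.55 to -0.50 over 11 libraries) to the left.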

How the data were processed

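RNA of sorted marrow cells was measured in 12 libraries as scaled signal values for 754 genes, as the authors deposited them, beside 8 negative and 6 positive controls. Each signal proved to be a whole count (within 0.00448 up to 1000 counts) times 1 factor per library, and genes under 20 counts carry the value 20. The instrument, panel and scaling method are not stated in these sources. Since a value of 20 hides its count, no count model was used. No 2 libraries of a group agreed within sampling noise (chi-square per degree of freedom at least 7.34).

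Genes with a mean over 11 libraries above the background (52.2, from the negative controls' mean plus 2 SD) were tested, 674 in all, with 80 removed. Group means of log2(signal + 1) were fitted with limma 3.58.1 in R 4.3.3 (lmFit, eBayes, two-sided), with 1 shared spread, adjusted by Benjamini-Hochberg over the 674 genes with a threshold of 0.05. The 1 added slightly understates fold changes of low genes. The value 20 is unscaled, while 20 counts were worth 103 in Adrb3-/- ICH replicate 2 and up to 43.0 in the other libraries used. A fall of a gene to under 20 counts can thus be overstated, most in Adrb3-/- ICH replicate 2. No batch is given, and p-values measure the spread between these libraries. Same-numbered libraries of different groups correlated at -0.42 to 0.15 in their deviations from the group means. Differently numbered libraries correlated at -0.31 to 0.45. The 2 Wild type sham libraries mirror each other in these deviations, so their correlations, the -0.42 among them, are not independent. The numbers were not taken to pair libraries.

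The genes, lists and tests were chosen with earlier results of these data known. Named besides S100a8 and S100a9 are list members that passed a test, up to 4 others per list by size of change, defining markers, and the 8 highest and 4 lowest genes by likeness; Il1b, Tlr4, the C/EBP genes and single values in other lists were picked after their values were seen. Names match the RefSeq gene table of GRCm38.p6 for 744 of 754 symbols, both calprotectin genes included, and promoter stretches are from the same build. Shares use recovered counts at or above 20.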

Additional observations from a re-analysis of the deposited data

Results flagged for a closer look

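Wild type sham replicate 1, the library left out of the comparisons as a failed reaction, still gave signal for both genes above its negative controls. S100a8 had 155 counts and S100a9 171 counts there, against a highest negative control of 42 counts and a mean of 26.9. They were the highest genes of that library, as in the other 11, yet together they took 1.32% of its gene counts (95% Wilson interval 1.18 to 1.47%, counting error only). With 1 count scaled to 15.5, their values were 2404 for S100a8 and 2652 for S100a9. The log2 ratio of S100a9 to S100a8 was 0.14, inside the range of the other libraries (-0.23 to 0.48).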

How the results depend on the processing

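Neither gene passed the adjusted threshold in any of 238 settings tried over the 5 comparisons (adjusted p 0.294 to 1), and 221 kept their direction. With all 12 libraries, changes turned to 1.61 (S100a8) and 1.33 (S100a9) for ICH against sham in wild type mice, 0.98 and 1.01 for Adrb3-/- sham against Wild type sham, and -0.80 and -0.58 for the interaction; the share differences turned to 10.9 and 3.09 points. Quantile normalization must level the pair, which holds ranks 1 and 2 in all 11 libraries: S100a8 was at 0.18 for ICH in wild type mice, -0.12 for Adrb3-/- ICH against Wild type ICH and -0.12 for the interaction, S100a9 at -0.061 for ICH in Adrb3-/- mice, and both at 0 between sham groups. Array weights gave -0.071 for S100a8 in Adrb3-/- ICH against Wild type ICH. Leaving out Adrb3-/- sham replicate 3 and Adrb3-/- ICH replicate 1, a choice made after seeing the data, gave -0.18 (S100a8) and -0.015 (S100a9) for ICH in Adrb3-/- mice and -0.19 for S100a8 in Adrb3-/- ICH against Wild type ICH.

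Leaving out each library in turn, S100a8 ranged over -0.19 to 0.46 for Adrb3-/- ICH against Wild type ICH and over 0.19 to 1.21 for ICH in Adrb3-/- mice, and S100a9 over 0.19 to 1.16 there. The log2 ratio ranged over -0.24 to 0.11 for ICH in Adrb3-/- mice and over -0.029 to 0.090 between sham groups. A lone Wild type sham library was assumed to vary like the other groups. With the replicate number as a block (replicate block), S100a8 changed by 0.81 and S100a9 by 0.75 for ICH in Adrb3-/- mice and by -0.71 and -0.95 in wild type mice, no call changed for either gene, and 0 libraries correlated best with their own number. Median centring and scaling to the sum of the other genes moved the median of all genes by up to 0.12 and 0.32. The 7 genes called for ICH in Adrb3-/- mice became 0 with 12 libraries, array weights, the block or only the groups compared, 1 with median centring, 2 without a filter, 4 with the filter over 12 libraries, 13 with a pseudocount of 20, 12 with a trend and robust prior, and 0 to 50 with a library left out, 50 without Adrb3-/- ICH replicate 3. For Adrb3-/- ICH against Wild type ICH, where 0 genes were called, there were 49 without that library, 5 without Adrb3-/- ICH replicate 1 and 2 without a filter.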
